A study of Mus musculus with 6 samples.

Results

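Activated fibroblasts that carry transcripts of Lox and Cthrc1 were followed in injured quadriceps muscle of mice, 5 days after cardiotoxin, a snake venom toxin that destroys muscle fibres. All 6 mice carried Cdh5-CreERT2 and R26R-tdTomato, a tamoxifen-dependent recombinase under an endothelial promoter with a red reporter. In the CLL group, 3 mice received clodronate liposomes into a vein, which the labels describe as a partial ablation of monocytes, and in the SHAM group 3 mice received PBS liposomes. Both were given 1 day before and 2 days after the injury. Each library came from its own mouse, per the labels, and the sources used here state no sex, age or tamoxifen timing. A rule on transcripts chose the fibroblasts, which were 5806 of the 60282 deposited cell barcodes.

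After muscle damage, fibroblasts that lie between the fibres divide, lay down a temporary matrix of collagen and fibronectin, and release factors that act on muscle stem cells, vessels and incoming leukocytes. Activated fibroblasts of this kind make cross-linked collagen and can take up contractile proteins. Lox encodes lysyl oxidase, which cross-links collagen and elastin, and Cthrc1 a secreted glycoprotein of injured and fibrotic tissue. Macrophages clear debris in the same tissue and exchange signals with fibroblasts, and how the fibroblasts fare when macrophage supply is reduced is the question the CLL and SHAM groups address.

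The rule first took barcodes with at least 500 genes and at most 15% mitochondrial UMIs (unique molecular identifiers, the count of captured transcripts), which left 42942. Col1a1, Col1a2, Col3a1, Dcn, Lum and Postn together had to make up at least 2% of the UMIs, with none of the leukocyte gene Ptprc or the tendon gene Tnmd, and the 12363 barcodes left are called fibroblast barcodes here. Among these, 8508 had UMIs of at least 4 of the 6 activated genes Cthrc1, Lox, Ddah1, Col8a1, Csrp2 and C1qtnf3, and 6649 had more of these than of the 6 interstitial genes Ptn, Clec3b, Angptl1, Col14a1, Smoc2 and Abca8a. Leaving out barcodes with more than 2 of the cycling genes Top2a, Mki67, Birc5 and Ube2c gave 6137, and leaving out those with all of Cxcl14, C3 and Spon1 gave the final 5806. By replicate, in the order 1, 2, 3 used throughout, the CLL mice gave 573, 2607 and 1056 of them and the SHAM mice 1462, 45 and 63. Just inside the threshold, 1248 barcodes with 4 activated genes had a median of 1857 UMIs and 3.60% matrix UMIs. Just outside it, 827 with 3 of these genes that met the other steps had 1466 UMIs and 3.24%. The least often detected of the 6 genes was Ddah1, with UMIs in 55.6% to 81.2% of the activated fibroblasts of a library, while Cthrc1 had UMIs in 90.5% to 97.9%.

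Libraries differed in depth and in what else they held. Total counts ranged from 23873416 to 94841003 UMIs per library, and the activated fibroblasts summed to between 706632 UMIs in SHAM replicate 2 and 14281868 in CLL replicate 3. Their median depth in UMIs was 18838, 2196 and 13941 for CLL and 4710, 7946 and 6225 for SHAM, so the shallowest and the deepest library were both CLL. Of all deposited barcode sequences, 362 occurred in more than 1 library, and 4 activated fibroblasts had a barcode found among those of another library.

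Activated fibroblasts made up a larger share of the fibroblast barcodes in every CLL library than in any SHAM library. The CLL libraries held 53.6%, 65.7% and 60.6% and the SHAM libraries 30.2%, 14.4% and 14.8%, or 59.9 ± 6.08% against 19.8 ± 8.99% (mean ± SD, n = 3 each). The difference was 40.1 percentage points, with a two-sided exact permutation p of 0.1, the smallest that 3 against 3 can give. Of all barcodes that met the quality steps, activated fibroblasts were 22.6 ± 8.87% in CLL and 4.40 ± 1.94% in SHAM, again without overlap. Interstitial fibroblasts, chosen by the mirrored rule (at least 4 of the interstitial genes and more of these than of the activated genes), went the other way. CLL libraries held 45, 76 and 48 of them and SHAM libraries 1203, 147 and 93, or 2.96 ± 1.16% and 31.3 ± 13.8% of fibroblast barcodes. There were 23.0 ± 10.8 activated fibroblasts for each interstitial fibroblast in CLL and 0.733 ± 0.457 in SHAM. Both rules compare the same gene sets over the same fibroblast barcodes, so the interstitial share and this ratio are not independent of the activated share. A further 1141 barcodes had at least 4 genes of both kinds in equal number and belong to neither class.

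Because the rule counts detected genes, each fibroblast barcode with at least 2000 UMIs was also drawn down to 2000 UMIs and the marker steps were applied again. The share was then 66.5%, 75.4% and 72.5% in CLL and 30.2%, 12.4% and 24.5% in SHAM (71.5 ± 4.52% against 22.4 ± 9.09%, exact permutation p = 0.1). CLL replicate 2 lost the most barcodes to this step, 1947 of 3971, and SHAM replicate 3 lost 233 of 425. At equal depth the shares therefore stayed apart by 49.1 percentage points, as the plot of shares by library shows. As a level of background, leukocyte barcodes were taken, those with Ptprc and without Pecam1 and Cdh5. They met the activated marker steps at 2000 UMIs in 11.2 ± 4.63% in CLL and 3.201 ± 3.02% in SHAM. The matrix step was not asked of them, so this share has another denominator than the shares above. Some carried fibroblast transcripts, with a UMI of the matrix gene Tnc in 4.14% to 32.5% of them by library, so they are no clean negative.

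**Figure D1:**
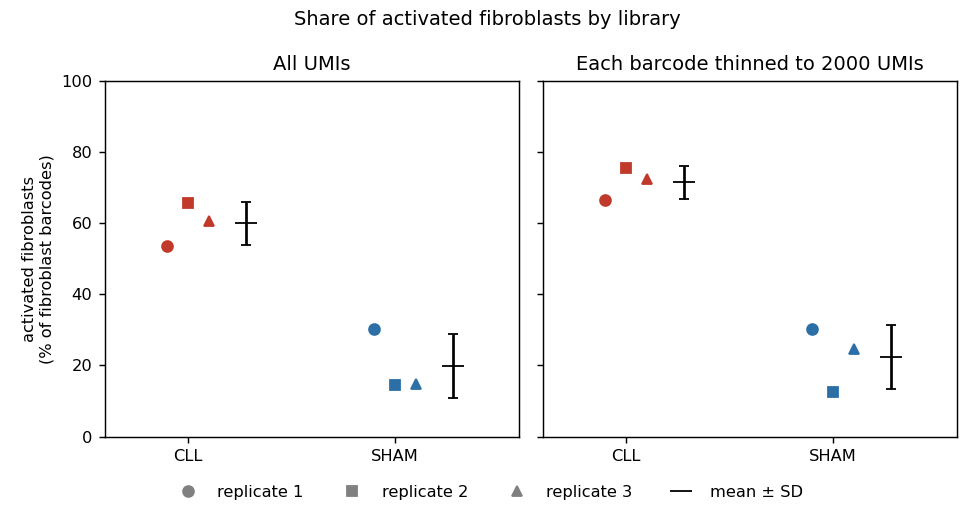
Activated fibroblasts as a percentage of fibroblast barcodes (vertical axis) in CLL (red) and SHAM (blue), left with all UMIs and right with each barcode thinned to 2000 UMIs; symbols are replicates, and bars give mean ± SD. The lowest CLL library (53.6% left, 66.5% right) lies above the highest SHAM library (30.2% in both panels).

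The genes that the rule read describe the class and were not tested. Lox stood at 1193, 1245 and 979 CPM (UMIs per 1000000 UMIs of the library's activated fibroblasts) in CLL and 619, 433 and 493.5 CPM in SHAM. Col8a1, which encodes a short-chain collagen, stood at 1039, 1144 and 1135 CPM against 558, 467 and 395 CPM. Among the fibrillar collagens used to find fibroblasts, Col1a1 reached 13940 ± 883 CPM for CLL against 18380 ± 3721 CPM for SHAM. Col3a1 reached 9822 ± 1086 and 11680 ± 1150 CPM. Postn, a matricellular protein of healing tissue, was 9124 ± 169 and 8607 ± 211 CPM. Next to these, Sparc, a collagen-binding protein, and Fn1, fibronectin, averaged 8640 and 3906 CPM over the 6 libraries.

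Activated fibroblasts were also set against interstitial fibroblasts of the same libraries, and the genes named here are among the 25 with the largest ratio in each direction. Of 2778 genes with at least 50 CPM in either class, 768 were higher in activated fibroblasts in all 6 libraries and 410 were lower in all 6. Since the same counts chose the classes, no test was made. Tagln, a smooth muscle actin-binding protein, averaged 846 CPM in activated and 98.1 CPM in interstitial fibroblasts over the 6 libraries. Acta2, smooth muscle actin, averaged 705.5 and 114 CPM, the tendon transcription factor gene Scx 68.9 and 12.1 CPM, and Lrrc15, a membrane protein of activated fibroblasts, 168 and 43.9 CPM. Lower in activated fibroblasts were Pi16, a marker of adventitial fibroblasts, at 18.8 against 258 CPM, the matrix gene Tnxb at 26.3 against 236 CPM, and the chemokine gene Ccl11 at 17.2 against 127 CPM.

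Drawn down to 2000 UMIs, 52.4 ± 4.91% of activated fibroblasts had an Acta2 UMI in CLL and 33.8 ± 15.8% in SHAM, against 14.9 ± 2.67% and 11.98 ± 11.6% of leukocyte barcodes with Ptprc. Scx was seen in 12.9 ± 3.54% and 8.85 ± 3.38%, with 3.87 ± 1.35% and 2.201 ± 1.48% of those leukocyte barcodes. Tnc, the matrix glycoprotein tenascin C, was seen in 76.4 ± 3.04% and 68.9 ± 14.9%, against 23.0 ± 5.78% and 15.8 ± 14.8%. The receptor gene Pdgfra, a general marker of these cells, was seen in 15.4 ± 3.85% in CLL and 27.8 ± 6.19% in SHAM, and in 2.16 ± 0.656% and 4.41 ± 1.93% of leukocyte barcodes. Before thinning, the leukocyte barcodes had medians of 10393, 5732 and 7798 UMIs in CLL and 3358, 12804 and 19121 UMIs in SHAM. The endothelial reporter, Tomato, had UMIs in 8.80 ± 0.587% of activated fibroblasts in CLL and 19.0 ± 3.53% in SHAM at 2000 UMIs. The same leukocyte barcodes gave 14.7 ± 0.946% and 15.0 ± 2.64%, and endothelial barcodes 73.3 ± 0.820% and 72.6 ± 16.7%, so the CLL share was below that background. In SHAM the activated fibroblasts gave 21.6%, 15.0% and 20.4% and the leukocyte barcodes of the same libraries 16.9%, 16.2% and 11.99%. The share was thus above that of leukocyte barcodes in SHAM replicates 1 and 3 and below it in replicate 2, where it rests on 40 activated fibroblasts.

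Activated fibroblasts of CLL and SHAM mice were then compared gene by gene on counts summed per library with edgeR's quasi-likelihood test. Of 12659 genes tested, 159 (1.26%) were higher and 189 (1.49%) lower in CLL at an adjusted p under 0.05, 348 (2.75%) in all, with a median log2 fold over all genes of -0.01. CPM lay above every SHAM library in all CLL libraries for 7.97% of genes and below for 14.8%. DESeq2 found 203 higher and 156 lower, so that 56.5% of its calls were higher, against 45.7% with edgeR. It still called 135 of the 159 rises and 110 of the 189 falls. Genes named below that DESeq2 lost were Comp, Ccl2, Loxl4, Pcolce2, Gbp3, Crim1, Gdf15, Aqp1 and Gngt2 (its adjusted p from 0.0620 to 0.355). It gained Vegfa, Pdgfra, Plod2, Col6a3, P4ha1, Cnn2, Tpm4, Thbs4 and Atf3 (adjusted p from 0.00269 to 0.0441). With edgeR, 2394 genes had an unadjusted p under 0.05. The groups differed in how firmly their barcodes met the rule: at 2000 UMIs, 83.05 ± 5.88% of activated fibroblasts in CLL and 54.3 ± 10.1% in SHAM still met the activated steps. Some genes named below as changed were also among those with the largest ratios between activated and interstitial fibroblasts. Slc16a3, Pgk1, Eno1, Mif, Ndufa4l2, Thbs1, Timp1, Col12a1 and Tagln were higher in activated fibroblasts in every library, and Igf2 and Zim1 lower. Acta2 and Tnc, which did not pass, were higher in activated fibroblasts in every library as well. The part that firmness of class membership had in the differences was not tested. Leaving out CLL replicate 1 gave 18 higher and 9 lower, CLL replicate 2 gave 36 and 18, and CLL replicate 3 gave 40 and 7. Leaving out SHAM replicate 1 gave 102 and 48, SHAM replicate 2 gave 192 and 323, and SHAM replicate 3 gave 216 and 554. No gene among the 348 changed direction in a fit without a CLL library or without SHAM replicate 2 or 3, and 338 of the 346 fitted without SHAM replicate 1 kept theirs.

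Markers of other cell types moved with the groups through SHAM replicate 1, as the plot of marker sums shows. Its activated fibroblasts carried 3292 CPM of the 13 macrophage and monocyte markers, against 97.7 to 385 CPM in the other 5 libraries. They carried 339 CPM of the 8 endothelial markers against 11.3 to 32.5 CPM, 276 CPM of the 8 mural markers against 41.5 to 63.5 CPM, and 36.4 CPM of the 9 lymphocyte and neutrophil markers against 1.05 to 3.36 CPM. Ptprc was 0 by rule. The endothelial genes Cdh5, Emcn and Cldn5, the mural gene Abcc9 and the macrophage genes Fcgr1 and Cd14 were among those that fell in CLL, as did the muscle stem cell genes Pax7 and Myf5. UMIs of at least 2 markers of another class were found in 48.5%, 37.0% and 39.5% of activated fibroblasts in CLL and in 75.3%, 40.0% and 88.9% in SHAM. Tenocyte markers, mostly Thbs4, summed to 2361 to 2783 CPM in CLL and 1263 to 2029 CPM in SHAM, and adventitial fibroblast markers to 147 to 281 and 99.8 to 156 CPM. Myogenic, myofibre and glial markers overlapped between the groups, at 55.2 to 165 CPM, 23.2 to 249 CPM and 92.0 to 222.5 CPM over the 6 libraries. CLL replicate 2 stood apart for adipocyte markers, at 146 CPM against at most 3.57 CPM elsewhere. Without SHAM replicate 1, 76 of the 159 rises and 21 of the 189 falls were still called. Fewer barcodes carrying such transcripts and less of them per barcode cannot be told apart in the sums.

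**Figure D2:**
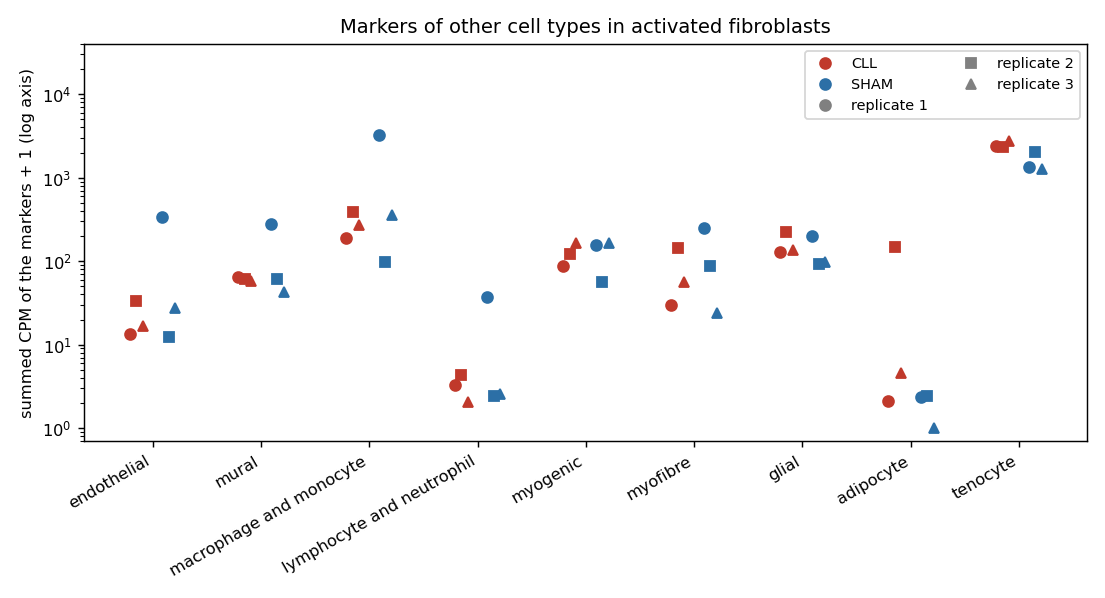
Summed CPM, plus 1, of markers of 9 other cell types in the activated fibroblasts of each library (log axis; CLL red, SHAM blue, symbols are replicates). SHAM replicate 1 stands above the other libraries for endothelial (339 CPM), mural (276 CPM), macrophage and monocyte (3292 CPM) and lymphocyte and neutrophil markers (36.4 CPM), and CLL replicate 2 for adipocyte markers (146 CPM).

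Genes of glycolysis and of the response to low oxygen rose together in activated fibroblasts of CLL mice. Of 29 tested, 17 rose and none fell, against 1.26% of all genes higher, and the median log2 fold was 1.24 against -0.01 for all genes. Slc16a3, which exports lactate, stood at 89.2, 106 and 70.0 CPM in CLL and 19.4, 14.2 and 25.6 CPM in SHAM (log2 fold 2.25 ± 0.23 SE, edgeR adjusted p = 0.00301). Pgk1, a kinase of the pathway that yields ATP, stood at 474, 546.5 and 405 CPM against 190.5, 113 and 190.1 CPM (1.601 ± 0.20 SE, adjusted p = 0.00655). All CLL libraries lay above all SHAM libraries for both. At equal depth, 44.5% of activated fibroblasts in CLL and 26.55% in SHAM had a Pgk1 UMI (group means). Leukocyte barcodes with Ptprc had 31.3% and 16.2%, and endothelial barcodes 27.1% and 19.2%. Slc16a3 was seen in 12.9% and 1.81% of activated fibroblasts and in 6.905% and 2.12% of those leukocyte barcodes. Interstitial fibroblasts had a Pgk1 UMI in 20.7% in CLL and 10.1% in SHAM, and a Slc16a3 UMI in 7.08% and 1.58%. The means were thus higher in CLL in these classes too. Whether the rise was larger in activated fibroblasts than in leukocyte or endothelial barcodes was not tested. Slc16a3, Pgk1, Eno1 and Mif were also higher in activated than in interstitial fibroblasts in every library. The part of this in their rises was not tested. Pfkl, a subunit of the rate-controlling phosphofructokinase, rose from 21.6 ± 4.03 to 60.7 ± 5.88 CPM (adjusted p = 0.00322). For Tpi1, an isomerase gene, the rise was from 181 ± 20.5 to 417 ± 32.8 CPM (adjusted p = 0.00538). The others that rose were the glycolytic enzyme genes Gpi1, Aldoa, Gapdh, Pgam1, Eno1, Pkm and Ldha, the kinase gene Pdk1, which holds pyruvate back from mitochondria, Bnip3, Ero1l, Ankrd37, Car9 and Mif. CPM lay above all SHAM libraries for 22 of the 29, against 7.97% of all genes. Vegfa, the vessel growth factor and a known target of the oxygen pathway, was 62.0, 71.4 and 32.7 CPM in CLL and 34.1, 14.2 and 14.4 CPM in SHAM and did not pass (1.27 ± 0.34 SE, adjusted p = 0.0703), but passed with DESeq2 (adjusted p = 0.00383) and without the low-count filter (adjusted p = 0.000702). Leaving out CLL replicate 1, 2 or 3 left 4, 6 and 13 rises, leaving out SHAM replicate 1 left 13, and the list's median stayed between 1.05 and 1.36 in these fits.

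Ndufa4l2, a mitochondrial protein gene and a further known target of the oxygen pathway outside that list, was 473, 610.5 and 400.5 CPM in CLL and 93.5, 96.2 and 99.0 CPM in SHAM (log2 fold 2.46 ± 0.19 SE, edgeR adjusted p = 0.000441). Its SHAM values were nearly equal, and the lowest CLL library lay far above them. At 2000 UMIs, 39.7 ± 7.77% of activated fibroblasts in CLL had a Ndufa4l2 UMI and 9.17 ± 4.76% in SHAM, against 7.49 ± 4.74% and 2.32 ± 1.70% of leukocyte barcodes with Ptprc. Interstitial fibroblasts had 25.2 ± 5.77% in CLL and 14.6 ± 3.54% in SHAM, so their SHAM mean was above that of activated fibroblasts. In CPM, activated fibroblasts were higher than interstitial ones in every library. Mgarp, also mitochondrial, rose from 5.37 ± 2.58 to 26.1 ± 11.6 CPM (2.36 ± 0.43 SE, adjusted p = 0.0235), a call lost without CLL replicate 1 or 2 or SHAM replicate 1 (adjusted p from 0.0686 to 0.124).

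Transcription factors of the response to low oxygen bind DNA at the letters ACGTG or GCGTG. These letters were looked for on both strands (CACGT and CACGC on the other, with ACGTG and CACGT overlapping in CACGTG) in the 250 bases before each start, from RefSeq with build GRCm38.p6. Of the 17 genes that rose, 16 had a promoter in that table, and 13 of these (81.2%) held at least 1 match at any of their starts. Of the 26 tested list genes with a promoter, 23 (88.5%) held one, as did 41.5% of all 27025 genes and 38.6% of all 32851 promoters. The list was made of glycolysis genes and genes of this response, so its share of matches is no independent result. That share was no higher among the genes that rose. Promoters of 3 genes with the smallest p of the list are shown because their matches differ in number and place, with the matching letters in capitals. Tpi1, the other such gene, had no match in this window. A match describes the sequence and does not show binding.
Slc16a3, chr11:120948817-120949066, plus strand: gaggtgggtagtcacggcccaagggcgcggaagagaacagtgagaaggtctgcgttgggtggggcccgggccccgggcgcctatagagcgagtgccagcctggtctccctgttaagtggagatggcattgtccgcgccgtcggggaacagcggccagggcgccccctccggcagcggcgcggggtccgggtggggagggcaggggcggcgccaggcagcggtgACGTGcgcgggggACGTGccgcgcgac
Pgk1, chrX:106186850-106187099, plus strand: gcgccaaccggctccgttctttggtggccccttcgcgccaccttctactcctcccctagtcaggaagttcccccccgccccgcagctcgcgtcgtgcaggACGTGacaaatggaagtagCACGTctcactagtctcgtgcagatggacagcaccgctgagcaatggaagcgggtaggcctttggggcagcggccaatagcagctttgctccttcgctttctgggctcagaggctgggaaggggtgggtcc
Pfkl, chr10:78009808-78010057, minus strand: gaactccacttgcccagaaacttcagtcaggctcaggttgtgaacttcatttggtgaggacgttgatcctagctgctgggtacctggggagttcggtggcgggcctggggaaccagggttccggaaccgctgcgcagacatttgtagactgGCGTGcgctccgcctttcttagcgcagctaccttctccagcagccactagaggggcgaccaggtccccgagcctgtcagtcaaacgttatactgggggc
Slc16a3 has its matches close to the start, Pgk1 in the middle of the window, and Pfkl a lone match.

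Genes of cholesterol synthesis rose as well. Of 20 tested, 9 rose, among them Hmgcs1, Sqle, Idi1, Fdps, Cyp51, Msmo1 and Mvk, and none fell, against 1.26% of all genes higher. All 20 had a positive log2 fold, with a median of 1.01. Fdps, which makes farnesyl diphosphate, stood at 86.6, 77.7 and 111 CPM in CLL and 22.5, 31.1 and 11.98 CPM in SHAM (2.22 ± 0.25 SE, edgeR adjusted p = 0.00322). Every CLL value was well above the highest SHAM value. Idi1, the isomerase before it in the pathway, rose from 4.66 ± 2.86 to 22.8 ± 5.09 CPM (adjusted p = 0.0117), Sqle, squalene epoxidase, from 8.74 ± 3.47 to 24.9 ± 2.39 CPM (adjusted p = 0.0108), and Cyp51, a demethylase, from 14.2 ± 7.80 to 50.8 ± 2.97 CPM (adjusted p = 0.0108). Abca1, which exports sterol from cells, fell from 59.8 ± 35.2 to 18.9 ± 2.52 CPM (-1.67 ± 0.31 SE, adjusted p = 0.0248) and Abcg1, a related exporter, from 24.8 ± 13.4 to 6.36 ± 0.713 CPM (-1.99 ± 0.31 SE, adjusted p = 0.0130). Both exporters are also macrophage genes, and SHAM replicate 1, with most macrophage UMIs, was highest for both, at 97.1 CPM of Abca1 and 37.9 CPM of Abcg1. The part of those UMIs in the falls was not tested, and without that library neither exporter passed (adjusted p = 0.122 for Abca1 and 0.0935 for Abcg1). Neither passed without any of the CLL libraries either (adjusted p from 0.0779 to 0.151 for Abca1 and from 0.0557 to 0.0986 for Abcg1). Leaving out CLL replicate 1, 2 or 3 left 1, 3 and 1 rises in the list, with Fdps among them each time. Idi1, Cyp51 and Sqle had adjusted p from 0.0502 to 0.0793 in the CLL fits in which they did not pass.

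Chaperone genes of the endoplasmic reticulum, where collagen is folded, were the third group. Of 30 tested, 7 rose (Hspa5, Hsp90b1, Calr, Pdia6, Manf, Creld2 and Hyou1) and none fell, against 1.26% of all genes higher. All 30 had a positive log2 fold, with a median of 0.46. Hspa5, the main chaperone, stood at 1243, 1492 and 1378 CPM in CLL and 671, 679 and 610.1 CPM in SHAM (1.15 ± 0.15 SE, edgeR adjusted p = 0.00677). The SHAM libraries lay close together, and all CLL libraries were above them. Creld2, a disulfide isomerase, rose from 29.1 ± 4.64 to 74.1 ± 20.6 CPM (adjusted p = 0.0142), the secreted factor gene Manf from 294 ± 36.4 to 615.9 ± 123.4 CPM (adjusted p = 0.0127), and the chaperone gene Hyou1 from 22.7 ± 3.76 to 45.6 ± 5.63 CPM (adjusted p = 0.0148). Leaving out CLL replicate 1, 2 or 3 left 3, 1 and 1 rises, with Hspa5 among them each time. Creld2 and Manf lost the call without CLL replicate 2 or 3 (adjusted p from 0.0595 to 0.0698), and Hyou1 without any CLL library (adjusted p from 0.0604 to 0.0744).

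The stress response element of such genes has CCAAT and CCACG with 9 bases between them, and was searched on both strands. In the 250 bases before RefSeq starts (GRCm38.p6) it was found in 35 of 27025 genes (0.13%). It was found in 7 of the 24 tested list genes with a promoter in the table (29.2%) and in all 5 of the risen ones with a promoter there, Hspa5, Hsp90b1, Calr, Pdia6 and Creld2. The element was described on chaperone genes of this kind, so its presence in the list is no independent result. The promoters of Hspa5 and Creld2, the risen genes with the smallest p in this list that were in the table, are shown with the element in capitals, which reads in opposite directions in them.
Hspa5, chr2:34771840-34772089, plus strand: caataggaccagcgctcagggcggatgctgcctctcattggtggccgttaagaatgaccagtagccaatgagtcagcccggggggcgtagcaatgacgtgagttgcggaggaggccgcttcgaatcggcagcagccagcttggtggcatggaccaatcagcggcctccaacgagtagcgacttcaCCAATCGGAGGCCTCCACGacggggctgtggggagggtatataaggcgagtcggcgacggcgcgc
Creld2, chr15:88819396-88819645, plus strand: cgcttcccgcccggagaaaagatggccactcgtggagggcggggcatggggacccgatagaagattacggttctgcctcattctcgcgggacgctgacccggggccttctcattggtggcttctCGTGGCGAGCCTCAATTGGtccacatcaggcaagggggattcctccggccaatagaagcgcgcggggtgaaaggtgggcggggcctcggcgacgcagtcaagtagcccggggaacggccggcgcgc
The element lies nearer to the start in Hspa5 than in Creld2. For cholesterol synthesis, the sterol element TCACNCCAC (GTGGNGTGA on the other strand) was found in 1 of the 5 risen genes with a promoter, Hmgcs1, and in 1.22% of all genes.

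**Figure D3:**
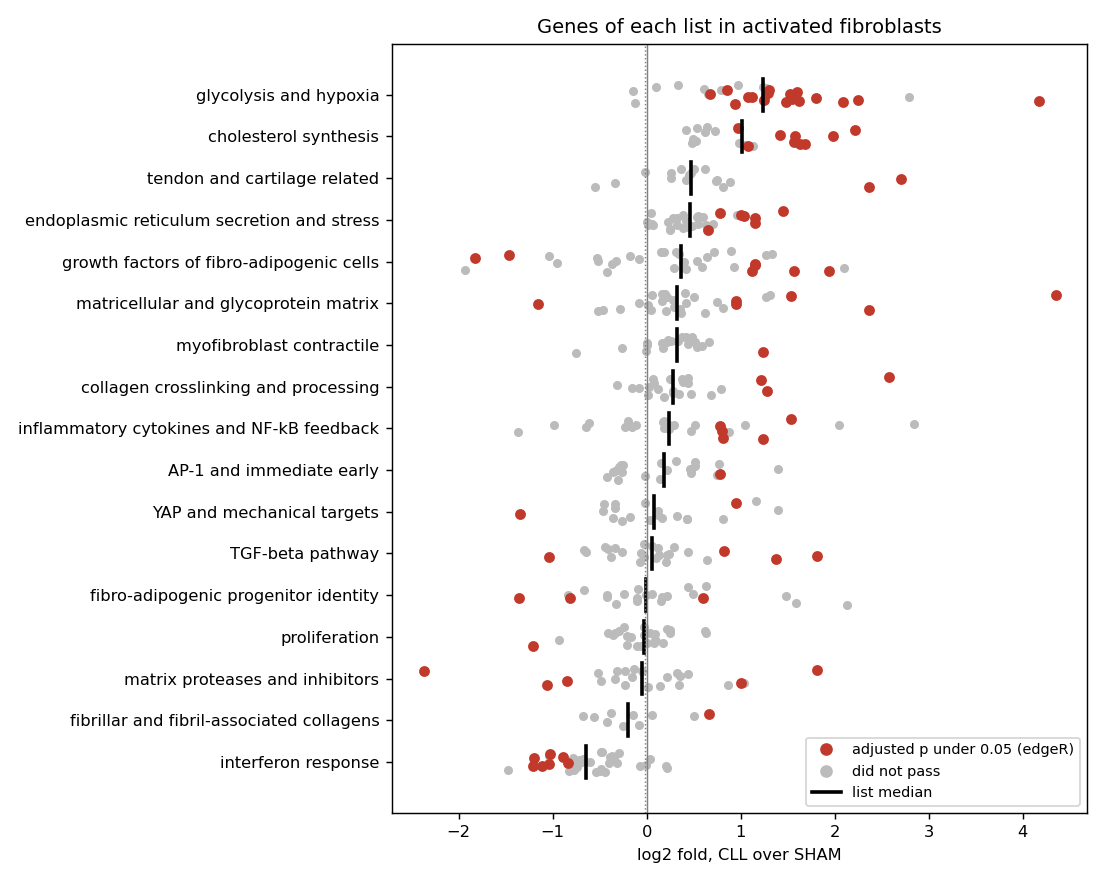
Log2 fold of CLL over SHAM in activated fibroblasts (horizontal axis) for every tested gene of 17 lists, 1 row a list; red points passed edgeR at an adjusted p under 0.05, grey points did not, black bars are list medians and the dotted line is the median of all genes. Glycolysis and cholesterol synthesis have medians of 1.24 and 1.01 with 17 and 9 genes risen, and the interferon response, at the bottom, has a median of -0.64 with 7 fallen.

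Of 10 fibrillar and fibril-associated collagens not read by the rule, 1 rose and none fell, and the median log2 fold was -0.19. Over all genes, 1.26% were higher and 1.49% lower. With DESeq2, 1 rose and 1 fell. The log2 fold was positive for 3 of the 10. CPM lay below all SHAM libraries for 4 and above all of them for 1, against 14.8% and 7.97% of all genes. Col12a1, which bridges collagen fibrils, was 1234, 1196 and 1169 CPM in CLL and 893, 686 and 836 CPM in SHAM (0.66 ± 0.15 SE, edgeR adjusted p = 0.0446). It lost the call without any CLL library or SHAM replicate 2 (adjusted p from 0.0714 to 0.204). Col5a2, which sets fibril width, was 2051 ± 109 and 2088 ± 83.8 CPM (0.06 ± 0.15 SE, adjusted p = 0.894), and Col6a3, a microfibril collagen, 1322 ± 142 and 2063 ± 311 CPM (-0.56 ± 0.17 SE, adjusted p = 0.104). Col7a1, the anchoring fibril collagen and no member of that list, fell from 26.5, 32.6 and 28.8 CPM in SHAM to 8.23, 7.33 and 9.73 CPM in CLL (-1.66 ± 0.20 SE, adjusted p = 0.00505). The SHAM libraries were all above the CLL libraries, with a wide gap between them.

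Of 23 genes that cross-link and process collagen, 3 rose and none fell, against 1.26% of all genes higher (median log2 fold 0.29). The log2 fold was positive for 20 of the 23, and CPM lay above all SHAM libraries for 7, against 7.97% of all genes. P4ha2, a prolyl hydroxylase of collagen, stood at 240.1, 248 and 195 CPM in CLL and 101, 108 and 91.0 CPM in SHAM (1.28 ± 0.16 SE, edgeR adjusted p = 0.00601), with no overlap. Its paralog P4ha1 was 229 ± 54.0 and 142 ± 8.13 CPM and did not pass (0.79 ± 0.19 SE, adjusted p = 0.0534), nor did the lysyl hydroxylase gene Plod2 (0.68 ± 0.21 SE, adjusted p = 0.109). Loxl2, a relative of Lox, was 257 ± 40.9 and 259 ± 69.2 CPM (0.07 ± 0.21 SE, adjusted p = 0.910). The other 2 that rose were low and unsteady. Loxl4 was at most 3.13 CPM in any library, and Pcolce2, which aids procollagen cleavage, reached 10.5 ± 2.13 CPM with CLL and 4.88 ± 0.676 CPM with SHAM. Without SHAM replicate 3, 4 genes of this list rose, and without any other library only P4ha2 did.

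Matricellular and glycoprotein genes gave 5 rises (Thbs1, Comp, Ccn2, Ccn5 and Fbln2) and 1 fall (Tgfbi) among 30 tested, with a median log2 fold of 0.32. Over all genes, 1.26% were higher and 1.49% lower. Of the 30, 25 had a positive log2 fold and 11 had CPM above all SHAM libraries, against 7.97% of all genes. Ccn5, a growth-restraining relative of Ccn2, was 49.5, 47.8 and 61.8 CPM in CLL and 3.28, 0 and 2.40 CPM in SHAM, where the 0 comes from 45 cells (log2 fold 4.35 ± 0.29 SE, edgeR adjusted p = 0.000163). It had the smallest p of all 12659 genes. At 2000 UMIs a Ccn5 UMI was found in 7.78 ± 0.860% of activated fibroblasts in CLL and 0.252 ± 0.436% in SHAM, where leukocyte barcodes with Ptprc had 1.42 ± 0.273% and 0.384 ± 0.170%. The SHAM share was thus at the level of background. Thbs1, thrombospondin, which can activate latent TGF-beta, was 704, 826 and 533 CPM in CLL and 361, 205 and 184 CPM in SHAM (1.54 ± 0.25 SE, adjusted p = 0.0142). Fbln2, a microfibril protein, rose from 574 ± 40.3 to 1045 ± 112 CPM (0.95 ± 0.16 SE, adjusted p = 0.0171), and Tgfbi, a TGF-beta-induced adhesion protein, fell from 128 ± 29.6 to 54.5 ± 8.86 CPM (-1.15 ± 0.19 SE, adjusted p = 0.0149). Comp, a cartilage and tendon matrix protein, rose from 25.8 ± 24.8 to 101 ± 15.1 CPM (adjusted p = 0.0236). Thbs1 and Fbln2 did not pass without CLL replicate 1 or 2 (adjusted p from 0.0685 to 0.109), Tgfbi without any CLL library (0.0698 to 0.0737), and Comp without any CLL library or SHAM replicate 1 (0.0511 to 0.124). Fixed for this comparison whatever their p, Fn1 was 3806 ± 279 and 4006 ± 189 CPM (0.01 ± 0.15 SE, adjusted p = 0.987) and Tnc 1343 ± 116 and 1251 ± 294 CPM (0.19 ± 0.18 SE, adjusted p = 0.628). Without each library in turn, the number that rose was from 1 to 9, the lowest without CLL replicate 1 or 2 and the highest without SHAM replicate 2.

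Among 21 contractile genes Tagln alone passed, and it rose, against 1.26% of all genes higher (median log2 fold 0.32). Tagln was 1026, 1289 and 1185 CPM in CLL and 570.3, 272 and 731.5 CPM in SHAM (1.23 ± 0.28 SE, edgeR adjusted p = 0.0468). It did not pass without any CLL library or without SHAM replicate 1 (adjusted p from 0.0601 to 0.169). Acta2 was 711, 789 and 881 CPM against 671, 410.4 and 771 CPM, overlapping between the groups (0.44 ± 0.21 SE, adjusted p = 0.2795). The calponin gene Cnn2 (0.67 ± 0.20 SE, adjusted p = 0.0906), the tropomyosin gene Tpm4 (0.54 ± 0.17 SE, adjusted p = 0.107) and the myosin gene Myh9 (0.59 ± 0.19 SE, adjusted p = 0.113) had higher CPM in every CLL library than in any SHAM library and did not pass. In the list, CPM lay above all SHAM libraries for 6 of the 21, against 7.97% of all genes. The log2 fold was positive for 18.

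The TGF-beta list, the main pathway known to drive this state, gave 3 rises and 1 fall among 25 (median log2 fold 0.06). Over all genes, 1.26% were higher and 1.49% lower. Ltbp2, a matrix protein related to latent TGF-beta binders, was 256, 260.4 and 243 CPM in CLL and 78.6, 120.3 and 118 CPM in SHAM (1.38 ± 0.20 SE, edgeR adjusted p = 0.009998). The groups did not overlap, and Ltbp2 missed the threshold without CLL replicate 1 (adjusted p = 0.0513). Smad7, an inhibitor of the pathway, rose from 61.0 ± 9.28 to 102 ± 7.90 CPM (adjusted p = 0.0235), and Nrep, which can affect the ligand genes, fell from 231 ± 71.7 to 106 ± 24.7 CPM (adjusted p = 0.0468). Smad7 lost the call without any CLL library (adjusted p from 0.0685 to 0.143), and Nrep without any library but SHAM replicate 3 (0.0846 to 0.192). The ligand genes did not pass: Tgfb1 was 34.5 ± 6.89 and 59.4 ± 17.5 CPM (-0.65 ± 0.21 SE, adjusted p = 0.123), and Tgfb3 148 ± 8.86 and 160.1 ± 5.13 CPM (-0.03 ± 0.14 SE, adjusted p = 0.956). Without CLL replicate 1, no gene of this list passed.

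Among targets of YAP, a factor that responds to stretch, 1 of 20 rose and 1 fell (median 0.08). Over all genes these shares were 1.26% and 1.49%. CPM lay above all SHAM libraries for 3 of the 20 and below all of them for 5, against 7.97% and 14.8% of all genes. Ccn2, connective tissue growth factor, rose from 194 ± 26.9 to 356 ± 50.6 CPM (0.95 ± 0.16 SE, edgeR adjusted p = 0.0178), and Crim1, a membrane protein that binds BMPs, fell from 13.9 ± 8.46 to 6.098 ± 0.931 CPM (adjusted p = 0.0470). Ccn2 did not pass without any CLL library (adjusted p from 0.0532 to 0.0986), nor Crim1, which did not pass without SHAM replicate 1 either (0.118 to 0.480). Of 22 immediate early genes of the AP-1 group 1 rose, against 1.26% of all genes. Ier3, which restrains cell death, rose from 466.5 ± 41.5 to 757 ± 24.8 CPM (adjusted p = 0.0210, and 0.0761 to 0.140 without a CLL library). Atf3 was 233 ± 33.7 and 147.5 ± 40.4 CPM and did not pass (0.75 ± 0.20 SE, adjusted p = 0.0726).

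Proteases and their inhibitors gave 2 rises, Timp1 among them, and 3 falls (Mmp9, Adam19 and Adamts4) among 23 (median -0.05). Over all genes, 1.26% were higher and 1.49% lower. CPM lay above all SHAM libraries for 3 of the 23 and below all of them for 7, against 7.97% and 14.8% of all genes. Timp1, an inhibitor of metalloproteases, was 729, 722 and 838 CPM in CLL and 297, 381 and 530.3 CPM in SHAM (1.00 ± 0.22 SE, edgeR adjusted p = 0.0407). Adamts4, which cleaves proteoglycans, was 41.2, 28.7 and 30.9 CPM against 81.4, 59.4 and 77.5 CPM (-1.05 ± 0.18 SE, adjusted p = 0.0171). Mmp9, a gelatinase also made by leukocytes, was low throughout, 2.00 ± 0.713 against 10.6 ± 1.52 CPM (-2.37 ± 0.32 SE, adjusted p = 0.00873). Timp1 did not pass without any CLL library or SHAM replicate 2 (adjusted p from 0.0671 to 0.162), Adamts4 without CLL replicate 2 or 3 (0.0749 and 0.105), and Mmp9 without CLL replicate 3 (0.0528). Mmp14, the collagenase at the cell surface, was 354 ± 68.9 and 475 ± 92.8 CPM (-0.34 ± 0.18 SE, adjusted p = 0.359), and Adam12, a protease of activated fibroblasts, 165 ± 16.2 and 150.4 ± 25.3 CPM (0.21 ± 0.16 SE, adjusted p = 0.528).

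Secreted growth factors and their antagonists were tested as a list of 34, of which 5 rose (Vegfd, Sfrp1, Sfrp2, Fst and Nrg1) and 2 fell (Igf2 and Gdf10), with a median of 0.37. Over all genes, 1.26% were higher and 1.49% lower. Sfrp1, which binds and restrains Wnt ligands, was 333, 360.1 and 321 CPM in CLL and 92.5, 129 and 66.3 CPM in SHAM (1.94 ± 0.22 SE, edgeR adjusted p = 0.00322). Igf2, an imprinted growth factor of development and regeneration, was 39.4, 27.8 and 31.7 CPM in CLL and 101, 75.0 and 110.2 CPM in SHAM (-1.46 ± 0.18 SE, adjusted p = 0.00538). The groups overlapped for neither gene, and both passed in all 17 alternatives fitted. Vegfd, a lymphatic growth factor, rose from 9.20 ± 2.06 to 25.9 ± 3.26 CPM (adjusted p = 0.00873) and Nrg1, a ligand of nerve-associated cells, from 14.0 ± 1.50 to 29.4 ± 3.37 CPM (adjusted p = 0.0144). Vegfd missed the threshold without CLL replicate 1 (adjusted p = 0.0513) and Nrg1 without any CLL library (0.0532 to 0.0986). Igf1, a growth factor for muscle, was 648 ± 43.4 and 516 ± 85.1 CPM and did not pass (0.41 ± 0.15 SE, adjusted p = 0.167). Leaving out a CLL library left 1 or 2 rises and 1 fall in this list.

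The imprinted gene Dlk1, which encodes a membrane protein that holds back differentiation, fell with Igf2. It was 33.4, 25.5 and 28.2 CPM in CLL and 92.8, 102 and 146 CPM in SHAM (-1.87 ± 0.20 SE, edgeR adjusted p = 0.00322), and it passed in every alternative fitted. Zim1, imprinted too, fell from 20.6 ± 9.27 to 5.64 ± 1.21 CPM (-1.71 ± 0.30 SE, adjusted p = 0.0207), a call lost without any CLL library or SHAM replicate 1 (adjusted p from 0.0540 to 0.129). Igf2 and Zim1 were also lower in activated than in interstitial fibroblasts in every library, and the part of this in their falls was not tested. Imprinted genes did not all fall: Dio3 rose (3.14 ± 0.45 SE, edgeR adjusted p = 0.00997), and the imprinted RNA H19 had a log2 fold of -0.12.

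**Figure D4:**
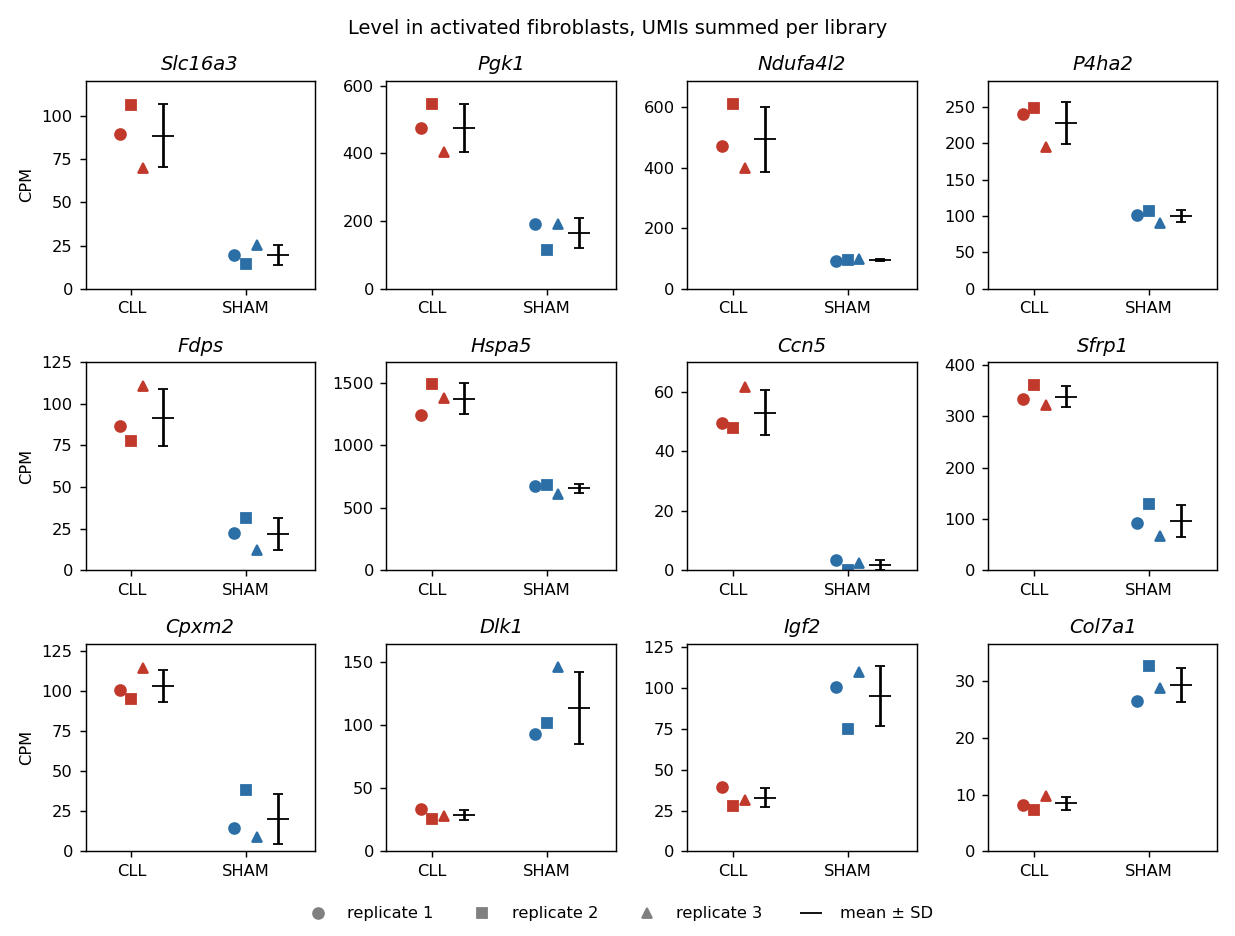
CPM in the activated fibroblasts of each library for 12 genes (vertical axes start at 0; CLL red, SHAM blue, symbols are replicates, bars give mean ± SD). The first 9 genes lie higher in all CLL libraries (Ndufa4l2 at 400.5 to 610.5 against 93.5 to 99.0 CPM) and Dlk1, Igf2 and Col7a1 lower in all of them.

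Of 25 inflammatory cytokine and NF-kB feedback genes, 5 rose (Ccl2, Ccl7, Csf1, Nfkbia and Il1r1) and none fell, against 1.26% of all genes higher (median 0.24). With DESeq2 1 of the list fell, and without the low-count filter 2 did. Ccl7, a monocyte-attracting chemokine, was 325, 355 and 291 CPM in CLL and 128, 169.8 and 144 CPM in SHAM (1.24 ± 0.17 SE, edgeR adjusted p = 0.00935), and Ccl2, its relative, 959, 766 and 756 CPM against 246, 508 and 161 CPM (1.54 ± 0.34 SE, adjusted p = 0.0444). Csf1, the growth factor of macrophages, rose from 53.3 ± 1.31 to 86.2 ± 7.47 CPM (0.78 ± 0.14 SE, adjusted p = 0.0236). At 2000 UMIs, 48.0 ± 3.57% of activated fibroblasts in CLL and 25.7 ± 4.87% in SHAM had a Ccl2 UMI. Leukocyte barcodes with Ptprc, which include cells that make it, had 46.6 ± 11.1% and 29.4 ± 2.41%. Ccl7 missed the threshold without CLL replicate 1 (adjusted p = 0.0513), and Ccl2 and Csf1 without any CLL library or SHAM replicate 1 (0.06004 to 0.182). Il6 was 37.4 ± 4.65 and 67.4 ± 41.7 CPM and did not pass (-0.64 ± 0.32 SE, adjusted p = 0.310). Without a CLL library, 0 or 1 of the list rose.

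Of 36 interferon response genes 7 fell (Irf1, Stat2, Oasl2, Rtp4, Iigp1, Gbp2 and Gbp3), against 1.49% of all genes lower. None rose, and the median log2 fold was -0.64. Irf1, a transcription factor of the response, was 60.1, 59.2 and 66.2 CPM in CLL and 100.2, 100.5 and 153 CPM in SHAM (-0.84 ± 0.18 SE, edgeR adjusted p = 0.0434), and Rtp4, an interferon-induced gene, 13.1, 8.40 and 14.6 CPM against 26.3, 31.1 and 33.5 CPM (-1.20 ± 0.24 SE, adjusted p = 0.0309). The groups did not overlap for 19 of the 36, against 14.8% of all genes below. No interferon gene passed without CLL replicate 1, 2 or 3 (adjusted p from 0.130 to 0.182 for Irf1 and from 0.0743 to 0.129 for Rtp4), 3 fell without SHAM replicate 1 and 3 with fibroblasts that carried 2 markers of another class left out. The median stayed between -0.71 and -0.42 in these fits, so the direction was shared where the calls were not.

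Markers of the progenitor state went both ways: 1 of 23 rose and 2 fell, against 1.26% of all genes higher and 1.49% lower. The median log2 fold was -0.00424. CPM lay above all SHAM libraries for 3 and below all of them for 5, against 7.97% and 14.8% of all genes. Twist1, a transcription factor of mesenchymal cells, rose to 94.7 ± 7.28 from 66.4 ± 2.53 CPM (0.60 ± 0.14 SE, edgeR adjusted p = 0.0468). Meox2, a homeobox factor of limb mesenchyme, was 57.8 ± 9.92 and 110 ± 15.7 CPM (-0.82 ± 0.18 SE, adjusted p = 0.0436), and Fbln7 16.2 ± 4.21 and 45.7 ± 19.4 CPM (-1.36 ± 0.28 SE, adjusted p = 0.0363). Each lost its call without any CLL library (adjusted p from 0.0959 to 0.178). Twist1 also lost it without SHAM replicate 1 or 2 (0.129 and 0.0585), Meox2 without SHAM replicate 2 or 3 (0.0725 and 0.0526), and Fbln7 without SHAM replicate 1 (0.0880). Pdgfra was 77.0 ± 12.5 and 149 ± 51.0 CPM and did not pass (-0.84 ± 0.23 SE, adjusted p = 0.0795), and Runx1, a factor of activated stroma, was 405 ± 19.1 and 308 ± 43.0 CPM (0.48 ± 0.15 SE, adjusted p = 0.106).

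Tendon and cartilage genes gave 2 rises among 17, Comp and Cpxm2, against 1.26% of all genes higher (median 0.48). Cpxm2, a carboxypeptidase-like matrix protein, was 101, 94.96 and 115 CPM in CLL and 14.5, 38.2 and 8.79 CPM in SHAM (2.71 ± 0.33 SE, edgeR adjusted p = 0.00538), and passed in every alternative fitted. Thbs4, a matrix protein of tendon that gave most of the tenocyte marker sum, was 2263 ± 191 and 1365 ± 395 CPM and did not pass (0.81 ± 0.21 SE, adjusted p = 0.0626). Tnmd was 0 by rule. Among 26 proliferation genes not read by the rule, none rose and 1 fell, against 1.49% of all genes lower. The cyclin gene Ccnd1 fell from 35.0 ± 19.2 to 16.1 ± 1.07 CPM (-1.20 ± 0.26 SE, adjusted p = 0.0425). Its SHAM values of 55.3, 16.98 and 32.7 CPM overlapped with the CLL values of 16.0, 17.2 and 15.0 CPM, and it did not pass without any CLL library or SHAM replicate 1 (adjusted p from 0.112 to 0.273).

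The remaining genes with the largest folds were of mixed kind. Kcnk1, a potassium channel, was 28.6, 37.4 and 33.1 CPM in CLL and 6.56, 2.83 and 7.99 CPM in SHAM (2.49 ± 0.24 SE, edgeR adjusted p = 0.00230), and passed in every alternative. Dio3, which inactivates thyroid hormone, rose from 2.73 ± 2.47 to 26.9 ± 10.9 CPM (3.14 ± 0.45 SE, adjusted p = 0.00997, and 0.0505 without CLL replicate 1). Hp, haptoglobin, had the largest fold of the named genes with all libraries, but its CLL values of 17.6, 257 and 29.0 CPM were uneven (5.59 ± 1.27 SE, adjusted p = 0.0468). Without CLL replicate 2 its log2 fold was 3.44, below that of Ccn5 (4.42). CLL replicate 2, highest for Hp, was also the library with adipocyte markers, whose part was not tested, and Hp did not pass without CLL replicate 3 or any SHAM library (adjusted p from 0.0647 to 0.174). Cpe, a peptide-processing enzyme, fell from 21.2 ± 4.02 to 5.35 ± 2.16 CPM (-1.95 ± 0.30 SE, adjusted p = 0.0121, and 0.0793 without CLL replicate 1), and Spon2, a secreted matrix protein, from 40.8 ± 26.0 to 9.61 ± 0.618 CPM (-1.80 ± 0.35 SE, adjusted p = 0.0281, and 0.101 to 0.135 without a CLL library). The falls of the stress cytokine gene Gdf15 (-3.10 ± 0.57 SE), the water channel gene Aqp1 (-2.75 ± 0.58 SE) and Gngt2 (-1.91 ± 0.44 SE) came with a high value in SHAM replicate 1. It held 78.1, 52.5 and 49.6 CPM of them against at most 12.8 CPM in any other library, and without it their adjusted p was 0.249, 0.459 and 0.729. None of the 3 passed without a CLL library either (adjusted p from 0.0865 to 0.206).

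Whether the CLL effect was the same in activated and interstitial fibroblasts of the same mice was tested as an interaction with the library as a block. Of 10277 genes, 5 (0.0487%) had a more positive effect in activated fibroblasts and 6 (0.0584%) a more negative one, 11 (0.107%) in all, with 660 at an unadjusted p under 0.05 and 6 and 8 by DESeq2. The folds within each class come from separate fits and the difference from the joint fit, so that they do not subtract exactly. Dlk1 was lower with CLL in both classes, by less in activated fibroblasts. In interstitial fibroblasts it was 51.4, 15.5 and 36.9 CPM in CLL and 372, 669 and 1422 CPM in SHAM, a log2 fold of -4.44 against -1.87 (difference 2.31 ± 0.34 SE, edgeR adjusted p = 0.00652). H19, an imprinted RNA, was 1311, 1126 and 973 CPM against 1160, 1442 and 1327 CPM in activated fibroblasts. In interstitial ones it was 1266, 867 and 920 CPM against 1863, 2207 and 2085 CPM, lower in CLL without overlap (difference 0.78 ± 0.11 SE, adjusted p = 0.00652). Dlk1 and H19 passed in every alternative fitted for the difference. Thbs1 had a log2 fold of 1.54 in activated and 0.60 in interstitial fibroblasts (difference 0.89 ± 0.17 SE, adjusted p = 0.0454), and the membrane protein gene Ms4a4d 1.45 and -0.06 (1.34 ± 0.24 SE, adjusted p = 0.0398). The difference for Thbs1 did not pass without CLL replicate 1 or 2 or SHAM replicate 1 or 2 (adjusted p from 0.0534 to 0.181), nor that for Ms4a4d without any library but SHAM replicate 3 (0.0534 to 0.122) or with DESeq2 (0.156). Leaving out CLL replicate 3 gave 7 more positive and 14 more negative, SHAM replicate 3 gave 13 and 28, SHAM replicate 2 gave 8 and 4, and CLL replicate 2 gave 3 and 4.

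Tnc, the matrix gene that did not pass in activated fibroblasts (0.19), had a log2 fold of 1.16 in interstitial ones, from 336.5, 147 and 223 CPM in SHAM to 370.0, 595 and 537 CPM in CLL (difference -1.03 ± 0.19 SE, edgeR adjusted p = 0.0391). These levels were below the 1212 to 1432 CPM of activated fibroblasts in CLL. Ly6c1, a surface protein gene, had folds of -0.51 and 1.80 (difference -2.27 ± 0.29 SE, adjusted p = 0.00348), the binding protein gene Igfbp5 -0.95 and 0.70 (-1.59 ± 0.24 SE, adjusted p = 0.00736) and the Wnt antagonist gene Sfrp4 -1.85 and 0.84 (-2.55 ± 0.43 SE, adjusted p = 0.0238). In interstitial fibroblasts the groups overlapped for each of these genes, with CLL replicate 2 highest. Ly6c1 was 265.5, 471 and 85.3 CPM in CLL and 78.3, 51.0 and 122 CPM in SHAM. Igfbp5 was 388, 813 and 304 CPM against 366, 371 and 225 CPM, and Sfrp4 54.8, 166 and 6.92 CPM against 28.1, 21.7 and 86.5 CPM. In CLL, the interstitial fibroblasts also carried more Pi16, the adventitial marker, at 256, 914 and 203 CPM against 45.0, 53.3 and 75.4 CPM in SHAM, and its part in these 4 differences was not tested. The difference for Tnc did not pass without CLL replicate 2 or 3 or SHAM replicate 2 (adjusted p from 0.0613 to 0.181), and those for Ly6c1 and Igfbp5 not without SHAM replicate 1 (0.0563 for both). That for Sfrp4 did not pass without CLL replicate 2 (0.388), without SHAM replicate 1 (0.108) or with DESeq2 (0.204). The remaining 3 genes of the 11, Gda, Myog and Uchl1, fell outside the rule for named genes and are named after their values were seen.

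For the lists that moved most, a difference between the classes was not shown. None of 27 glycolysis genes, 19 cholesterol synthesis genes, 30 chaperone genes or 36 interferon genes passed the interaction. Their median log2 folds were 1.24 in activated and 0.79 in interstitial fibroblasts for glycolysis, 1.04 and 0.44 for cholesterol synthesis, 0.46 and 0.32 for chaperones and -0.64 and -0.52 for interferon genes. CLL interstitial fibroblasts numbered at most 76 a library, which limits what this test can show.

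**Figure D5:**
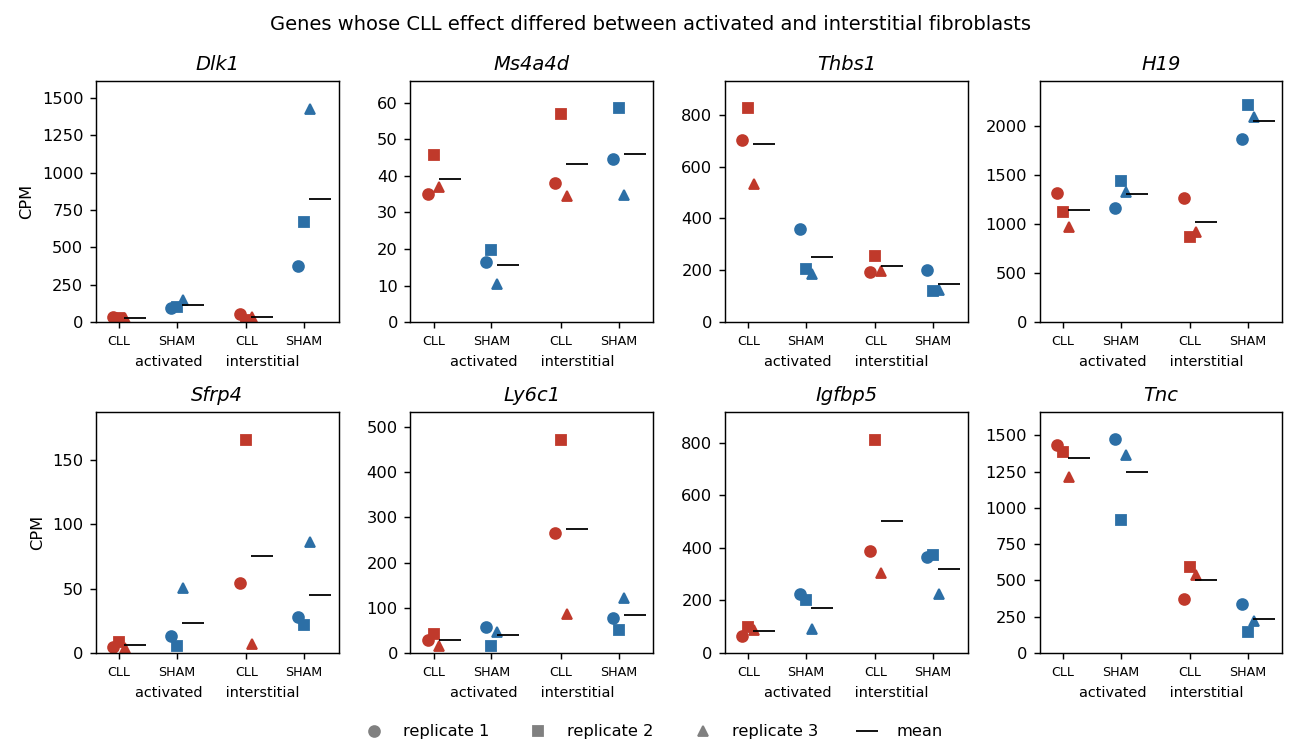
CPM per library of the 8 genes named for the difference of the CLL effect, in activated (left pair) and interstitial fibroblasts (right pair) of CLL (red) and SHAM (blue); symbols are replicates and black lines are means. Dlk1 in interstitial fibroblasts is 372 to 1422 CPM in SHAM and 15.5 to 51.4 CPM in CLL, while Tnc differs between CLL and SHAM in interstitial fibroblasts and overlaps in activated ones.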

How the data were processed

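Quadriceps were digested with dispase and collagenase, cleaned over Ficoll and sequenced with a 10x 3′ kit, per the labels' protocols. The authors deposited UMI counts per gene and barcode for each mouse, made with Cell Ranger 6.1.2 on mm10, per the submitters' processing notes. Barcode selection before deposit and any doublet step: not given in the sources used here. Raw UMI counts of the activated fibroblasts were summed per library, with at least 20 barcodes required, and fitted with edgeR 4.0.16 in R 4.3.3 (TMM, filterByExpr, group as the only term, quasi-likelihood test, Benjamini-Hochberg adjusted p under 0.05). The 27 genes read by the rule and mitochondrial genes stayed in the totals and out of the test. The difference between classes was fitted with class, class by treatment and a library block. CPM are unscaled, and SE is the log2 fold over the root of the F statistic. For CPM and shares, ± gives the SD over the libraries of a group. The replicate is the mouse. Scripts were tested on simulated data. The members and gene lists were chosen with earlier results of these data known. Named genes were the up to 10 largest rises and falls among called genes without overlap and with at least 20 CPM in the higher group, leaving out markers of other cells, up to 4 genes with the smallest p of each list, a fixed set of fibroblast genes, and up to 5 a direction for the difference. Alternatives were DESeq2 1.42.0, RLE factors, no filter, each library left out, the replicate block, other rule thresholds, Scrublet from scanpy 1.11.5 for doublets, thinning to 2000 UMIs and stricter quality. A few genes that the rule would name are not reported here.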

Additional observations from a re-analysis of the deposited data

Results flagged for a closer look

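The effect of CLL differed between activated and interstitial fibroblasts of the same mice by the test of the difference itself for 8 named genes. The difference in log2 fold, activated minus interstitial, was 2.31 for Dlk1, 1.34 for Ms4a4d, 0.89 for Thbs1 and 0.78 for H19. It was -2.55 for Sfrp4, -2.27 for Ly6c1, -1.59 for Igfbp5 and -1.03 for Tnc. Groups held 3 libraries each, so no library was tested for standing apart from its group.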

How the results depend on the processing

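Of 65 named genes that passed, 15 passed in all 17 alternatives, 22 were lost without SHAM replicate 1 and none changed direction in 1102 gene and alternative pairs, of which 259 missed the threshold. Calls higher and lower numbered 445 and 755 without the low-count filter, 41 and 12 with the replicate block, and 144 and 382 without CLL replicate 2 and SHAM replicate 3, the library with the lowest median depth and that with the lowest mitochondrial share among these fibroblasts. They ranged from 18 to 216 and from 7 to 554 without each replicate in turn. The block pairs libraries by number only, since same-numbered libraries did not deviate together (correlations -0.23, -0.20 and 0.08 over 5805 genes). Differences between classes numbered 84 more positive and 39 more negative without the filter, and 3 to 13 and 4 to 28 without each replicate. The share of activated fibroblasts differed by 37.2 to 45.3 percentage points without each replicate. Among 33 named genes that did not pass, 57 of 559 pairs passed the threshold and 16 changed sign. Without each replicate in turn Tgfb3 ranged from -0.0819 to 0.0176, Fn1 from -0.0452 to 0.0787 and Loxl2 from -0.0618 to 0.289. Tgfb3 was 0.0196 without the filter, 0.0590 without CLL replicate 2 and SHAM replicate 3 and 0.187 thinned. Fn1 was -0.0364 with the highest Scrublet scores left out, -0.262 without barcodes holding markers of another class and -0.181 thinned. Col5a2 was -0.0822 without those barcodes and -0.114 thinned, and Nusap1 0.245 without those barcodes. The cause was not tested. Leaving out those barcodes also drops SHAM replicate 3, with 7 activated fibroblasts left. SHAM replicates 2 and 3, with 45 and 63 activated fibroblasts, limit the precision of every SHAM mean.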
